A study of Mus musculus with 4 samples.

Results

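The genes described here encode the enzymes that cut extracellular matrix and the proteins that restrain them: matrix metalloproteinases (MMPs), ADAMTS proteases, ADAMTS-like proteins and tissue inhibitors of metalloproteinases (TIMPs). They were chosen by symbol alone, as every gene named Mmp, Timp, Adamts or Adamtsl with its number and with an estimate of status OK in all 4 libraries. This gave 49 genes of 32871 named gene units: 21 Mmp, 4 Timp, 19 Adamts and 5 Adamtsl genes. The study sorted dermal cells of mouse embryos by an Axin2-LacZ reporter, where Axin2 is a target and negative regulator of the Wnt pathway. Its question was whether Wnt signalling gives the mesenchyme of different body sites different gene expression. The groups were cells positive and cells negative for the reporter from the dermis of ventral foot skin at embryonic stage E17.5, and the same fractions of dorsal back skin at E14.5, with 1 library in each of the 4 groups. All groups were digested with hyaluronidase (300 U/ml) and with collagenase (1000 U/ml) before sorting, and fetal bovine serum at 4% is given for all of them. Body site and stage changed together, so they cannot be told apart. Pooling of embryos is not given in the sources used here.

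MMPs are zinc endopeptidases that are made as inactive precursors and are switched on by cleavage, in the secretory pathway, at the cell surface or outside the cell. TIMPs block their active sites, and the inhibitor Timp2 has a further role as the bridge by which the membrane-anchored enzyme Mmp14 captures and activates pro-Mmp2. ADAMTS proteases cut proteoglycans such as versican and aggrecan or trim procollagen, and ADAMTS-like proteins resemble them without a protease domain. In embryonic skin these proteins take part in the turnover of collagen, versican-rich and fibrillin-rich matrix.

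Values are FPKM, fragment counts corrected for transcript length and library size, each deposited with a lower and an upper bound, which are given in parentheses after a level. These bounds cover counting and read assignment within a library and not variation between embryos, and with 1 library a group no difference has a replicate check or a test. The 12 dermal fibroblast markers examined, such as Pdgfra and Col1a1, all reached at least 1 FPKM in all 4 libraries. Axin2, the gene of the sort, was listed at 9.65 FPKM (7.10 to 12.5) in the foot library labelled positive and at 12.9 (10.2 to 15.3) in the one labelled negative. It was at 4.49 (3.89 to 5.09) in the back positive and 3.13 (2.63 to 3.64) in the back negative library. After scaling, the Axin2 bounds of the 2 fractions overlapped in both skins, and in the foot the difference ran against the labels, so every sort direction below follows the labels of the libraries. The half-width of the bounds had a median of 23.1% of the value in the foot positive library, 14.1% in the foot negative, 9.01% in the back positive and 9.91% in the back negative library, over coding genes of at least 5 FPKM.

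Of the 49 genes, 17 reached 5 FPKM in at least 1 library (34.7%, against 32.8% of the 19648 coding genes), 12 peaked between 1.39 and 3.83 FPKM and 20 stayed at or below 0.845 FPKM in every library. Among the 21 Mmp genes, 5 reached 1 FPKM anywhere, against 15 of 19 Adamts genes, all 4 Timp genes and all 5 Adamtsl genes, and 52.2% of coding genes. The genes listed at 0 numbered 17 in the foot positive, 14 in the foot negative, 10 in the back positive and 9 in the back negative library, and 6 genes, all of them Mmp genes, were listed at 0 in all 4. As shares, these were 34.7%, 28.6%, 20.4% and 18.4% of the members, against 45%, 40.6%, 32.4% and 30.8% of coding genes, and 12.2% against 25.4% in all 4 libraries. Some of these values of 0 may be failed estimates, so no fold size is given against them, although such genes enter the counts below.

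**Figure D1:**
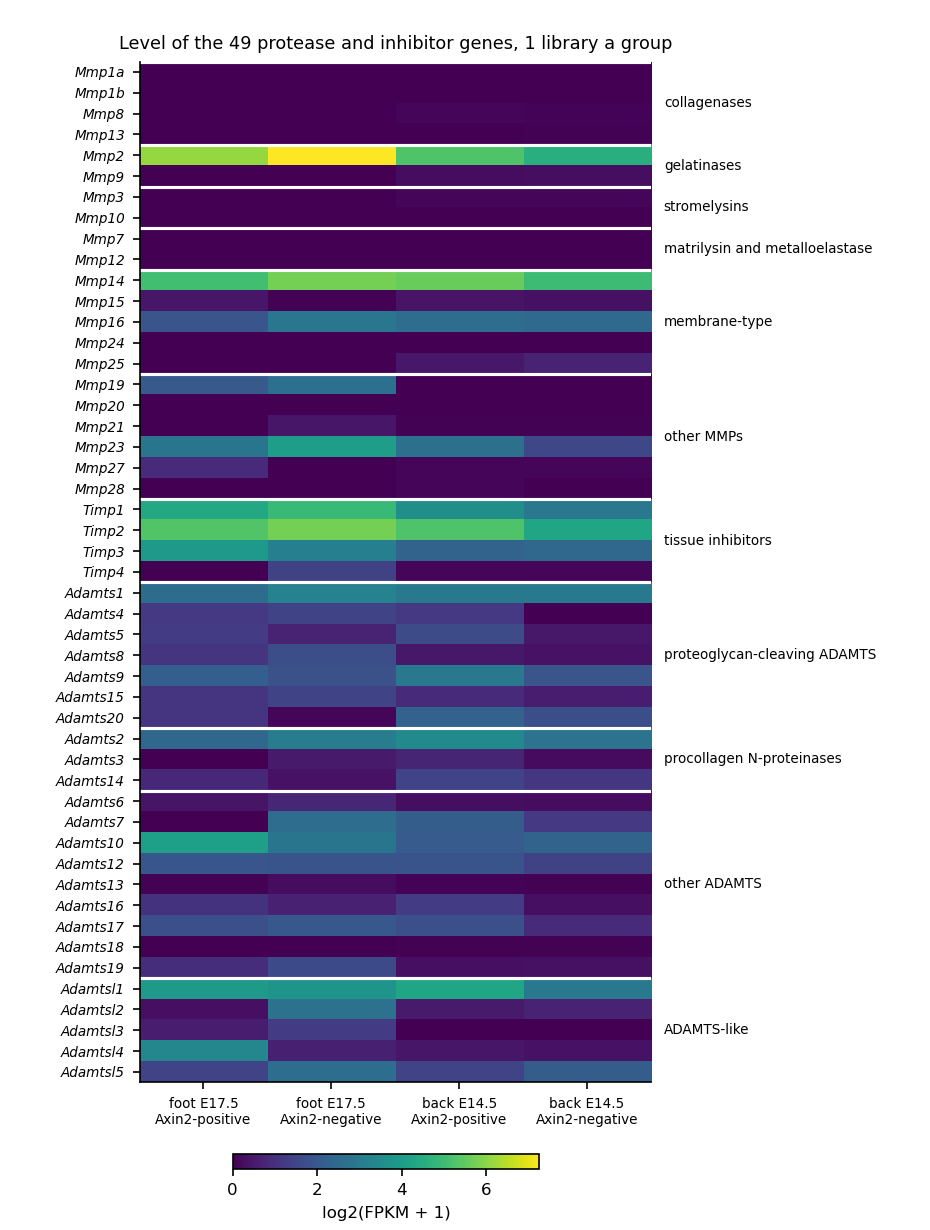
Level of each of the 49 genes in each of the 4 libraries as log2(FPKM + 1), with genes in rows grouped by role and 1 library in each column. Most Mmp rows are dark in every library, while Mmp2, Mmp14, Timp1, Timp2 and Adamtsl1 are bright in all 4.

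The activation partners Mmp2, Mmp14 and Timp2 led the set. Mmp2, the gelatinase that digests denatured and basement membrane collagen, lies at chr8:95351227-95377320 (mm9). It was at 67.2 FPKM (61.6 to 72.7) in the foot positive library and at 151 in the foot negative library, where the value exceeded its own bounds of 138 to 149. In the back it was at 37.0 (35.5 to 38.8) in the positive and 22.9 (21.6 to 24.3) in the negative library. Both foot libraries lay above both back libraries, in opposite order of the 2 fractions.

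Mmp14, the membrane-anchored collagenase (chr14:55050441-55060095, mm9), was at 32.0 FPKM (27.0 to 34.7) in foot positive, 52.5 (49.2 to 55.9) in foot negative, 46.5 (44.9 to 48.7) in back positive and 30.3 (28.0 to 31.1) in back negative cells. Unlike Mmp2, its levels did not separate the skins. Timp2 (chr11:118162383-118217054, mm9) was at 38.2 FPKM (34.5 to 41.8), 52.2 (49.5 to 55.3), 36.9 (33.7 to 40.1) and 18.2 (17.1 to 19.3) in the same order. It was lowest in the back negative library, and its foot positive and back positive bounds overlapped.

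Together the 3 genes made up 54.2% of the summed FPKM of all 49 genes in the foot positive, 65.2% in the foot negative, 55.8% in the back positive and 54.9% in the back negative library. The sums themselves were 254, 393, 216 and 130 FPKM in that order, as deposited and without scaling between libraries, so their differences depend in part on the scaling. Their balance differed between skins, and ratios within a library do not depend on the scaling between libraries. The ratio of Mmp2 to Mmp14 FPKM was 2.10 with a half-width of 0.308 from the bounds in foot positive and 2.88 (half-width 0.213) in foot negative cells. In the back it was 0.796 (half-width 0.0476) in positive and 0.757 (half-width 0.0584) in negative cells. Thus Mmp2 exceeded Mmp14 in both foot libraries and was below it in both back libraries, and the deposited bounds of the 2 genes did not overlap in any library.

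The ratio of Mmp2 to its inhibitor and activation partner Timp2 was 1.76 (half-width 0.222) and 2.90 (half-width 0.193) in foot positive and negative cells, and 1.003 (half-width 0.0981) and 1.26 (half-width 0.107) in back positive and negative cells. The ratio of Mmp14 to Timp2 ran the other way between skins, at 0.837 (half-width 0.129), 1.01 (half-width 0.0856), 1.26 (half-width 0.121) and 1.67 (half-width 0.133) in the same order. In each skin both ratios were larger in the negative fraction, although for Mmp14 to Timp2 in the foot the difference was within the half-widths.

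**Figure D2:**
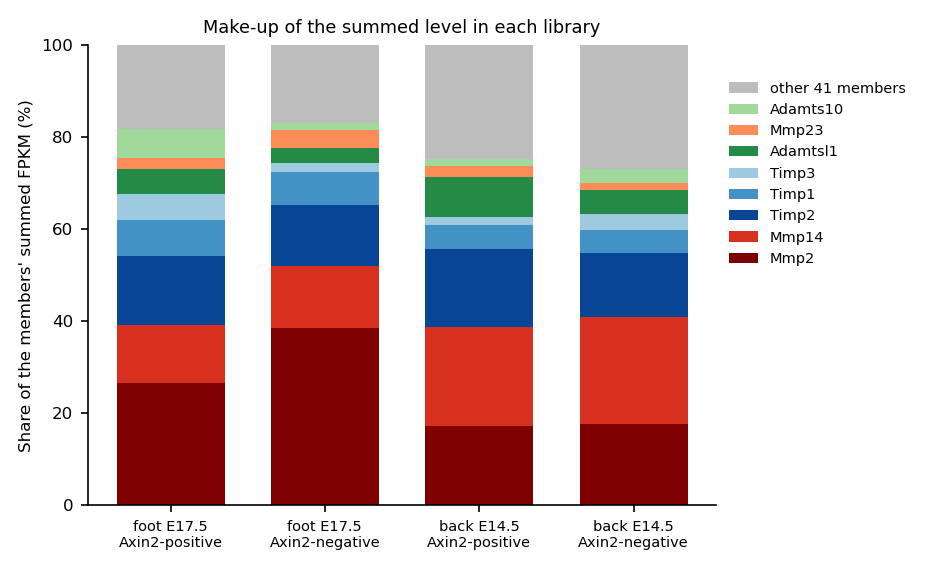
Share of the summed FPKM of the 49 genes, in percent, taken by 8 named genes and by the other 41, with 1 bar for each library. Mmp2 takes 26.5% and 38.6% in the foot positive and negative libraries and 17.1% and 17.6% in the back, while Mmp14 takes 12.6% and 13.4% in the foot and 21.5% and 23.3% in the back.

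The other inhibitors were less abundant than Timp2. Timp1, a secreted inhibitor, was at 19.9 FPKM (10.4 to 44.2) in foot positive, 28.8 (24.6 to 33.0) in foot negative, 11.0 (9.50 to 12.5) in back positive and 6.54 (5.28 to 7.82) in back negative cells. The wide bounds of the foot positive value overlapped those of the foot negative and back positive values. Timp3, the inhibitor that binds to matrix and also blocks ADAMTS and ADAM enzymes (chr10:85763117-85812251, mm9), was at 14.2 FPKM (11.9 to 16.6), 7.70 (6.83 to 8.58), 3.99 (3.64 to 4.33) and 4.44 (3.96 to 4.96). It was highest in the foot positive library, and the deposited bounds of the 2 back libraries overlapped. After scaling, these back bounds did not overlap, and Timp3 was higher in the back negative library. Its exons share 1733 bases with Syn3 on the opposite strand, a gene listed at 0 in all 4 libraries. The ratio of Timp3 to Timp2 was 0.372 (half-width 0.0718) and 0.147 (half-width 0.0187) in foot positive and negative cells and 0.108 (half-width 0.0133) and 0.244 (half-width 0.0314) in back positive and negative cells. Timp4 was found at 1.71 FPKM (0.978 to 2.45) in foot negative cells, was listed at 0 in foot positive cells and was at 0.0718 and 0.0834 in back positive and negative cells.

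Of the remaining MMPs, Mmp23, Mmp16 and Mmp19 were measurable. Mmp23 (chr4:155024764-155027493, mm9), an MMP without the usual hemopexin domain, was at 6.0 FPKM (3.44 to 9.63) in foot positive, 15.3 (12.7 to 18.1) in foot negative, 5.34 (3.89 to 6.01) in back positive and 2.0 (1.31 to 2.68) in back negative cells. It had the same order of libraries as Mmp2 within each skin: negative above positive in the foot, and positive above negative in the back. Mmp16, a second membrane-type MMP, ranged from 2.75 to 6.19 FPKM. Mmp19, a secreted MMP, was at 3.06 FPKM (2.16 to 3.91) and 5.25 (4.42 to 6.07) in foot positive and negative cells and was listed at 0 in both back libraries, with upper bounds of 0.0170 and 0.0198. Its exons share 789 of 3533 bases with Tmem198b on the opposite strand, a gene of at most 6.11 FPKM, and strand-specific counting is not stated, so reads there cannot be assigned to one of them.

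The gelatinase Mmp9 did not exceed 0.216 FPKM and was listed at 0 in both foot libraries. Among the other membrane-type enzymes Mmp15, Mmp24 and Mmp25, and the others Mmp21 and Mmp28, the highest value was 0.627 FPKM, for Mmp25 in back negative cells. Mmp11, the stromelysin-3 gene, is not among the 49 because the tables give it only joined with a neighbouring gene model. That joined entry was at 106, 70.5 and 12.3 FPKM in the foot positive, foot negative and back positive libraries. The foot values lay above their own bounds (45.2 to 74.6 and 29.3 to 45.3), and in the back negative library the entry also contained Smarcb1, so none of these values can be read as an Mmp11 level. Mmp17 was likewise joined and was below 0.5 FPKM in every library.

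The Mmp genes under 1 FPKM were largely those of a gene cluster. A run of 10 Mmp genes lies within 427 kb at chr9:7272514-7699585 (mm9) in the order Mmp13, Mmp12, Mmp1b, Mmp3, Mmp1a, Mmp10, Mmp8, Mmp27, Mmp20 and Mmp7. It holds all 4 rodent collagenase genes of the set (Mmp1a, Mmp1b, Mmp8 and Mmp13), the stromelysins Mmp3 and Mmp10, matrilysin (Mmp7), metalloelastase (Mmp12) and enamelysin (Mmp20). The highest value of any of the 10 was 0.845 FPKM (0 to 1.82), for Mmp27 in the foot positive library. In both foot libraries 8 of the 10 were listed at 0, and 5 were listed at 0 in all 4 libraries. Of the 11 Mmp genes outside the cluster, 5 reached at least 1 FPKM.

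The promoters of the cluster and of the leading genes also differed in sequence, a property that the choice by symbol did not use. RefSeq promoter windows of 300 bases on GRCm38.p6 (250 before and 50 after the start) were matched for 35 of the 49 genes, with 38 windows, and Mmp2 was not among them. The 120 bases before the start are shown for 4 genes of the cluster and for Mmp14 and 3 TIMPs, as examples from the low and the high end of expression. Other matched genes at these ends, such as Mmp7, Mmp20 and Mmp23, are not shown. Lower case letters are the sequence, 5′ to 3′ on the gene's strand, and capitals mark the AP-1 motif TGANTCA, the TATA box TATAAA or the GC box GGGCGG, which reads CCGCCC on the other strand. The windows are chr9:7272394-7272513 (Mmp13), chr9:7445702-7445821 (Mmp3), chr9:7464021-7464140 (Mmp1a), chr9:7502222-7502341 (Mmp10), chr14:54431478-54431597 (Mmp14), chrX:20870046-20870165 (Timp1) and chr10:86300292-86300411 (Timp3), all on the plus strand, and chr11:118355412-118355531 (Timp2) on the minus strand.
Mmp13: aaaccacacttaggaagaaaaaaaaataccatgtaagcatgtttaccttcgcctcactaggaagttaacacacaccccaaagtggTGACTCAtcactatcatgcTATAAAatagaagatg
Mmp3: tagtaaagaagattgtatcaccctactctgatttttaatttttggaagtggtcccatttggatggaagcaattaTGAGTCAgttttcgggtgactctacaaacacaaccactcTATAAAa
Mmp1a: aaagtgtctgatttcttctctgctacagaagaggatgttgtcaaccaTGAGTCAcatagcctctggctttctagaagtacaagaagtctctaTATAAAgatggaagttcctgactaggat
Mmp10: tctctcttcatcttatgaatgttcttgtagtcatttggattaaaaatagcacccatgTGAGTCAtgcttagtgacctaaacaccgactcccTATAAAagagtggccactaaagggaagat
Mmp14: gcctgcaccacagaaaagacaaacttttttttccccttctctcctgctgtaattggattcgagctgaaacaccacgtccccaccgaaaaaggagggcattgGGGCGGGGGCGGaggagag
Timp1: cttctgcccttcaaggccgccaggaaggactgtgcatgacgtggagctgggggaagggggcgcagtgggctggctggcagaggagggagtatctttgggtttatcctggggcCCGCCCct
Timp2: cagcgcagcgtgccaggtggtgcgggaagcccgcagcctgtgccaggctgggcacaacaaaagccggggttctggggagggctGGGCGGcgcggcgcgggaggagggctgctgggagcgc
Timp3: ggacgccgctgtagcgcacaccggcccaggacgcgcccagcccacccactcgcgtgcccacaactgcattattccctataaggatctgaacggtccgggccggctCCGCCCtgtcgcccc

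All 4 cluster promoters shown carry the AP-1 motif upstream of a TATA box, while the 4 shown from outside the cluster carry a GC box. Both strands of all windows were searched. TGANTCA was found in 8 of the 12 windows of the cluster (66.7%, in 8 of its 10 genes) and in 0 of the 26 windows of the other members, against 7.81% of all 32851 promoter windows of the table. TATAAA was found in 9 of the 12 cluster windows (75%) against 13.6% of all windows. GGGCGG was found in 0 of the 12 cluster windows and in 11 of the 12 windows (91.7%) of members that reached 5 FPKM, against 35.7% of all windows. It was also in 7 of the 8 windows (87.5%) of members under 1 FPKM outside the cluster and in 3 of the 6 (50%) of members between 1 and 5 FPKM, so its presence separated the cluster from most other members and did not follow the level. The CpG count had a median of 1 (range 0 to 7) in the cluster, 23.5 (8 to 41) in members that reached 5 FPKM and 7 in all windows. A CpG-rich window did not go with a high level by itself: the 8 matched genes under 1 FPKM outside the cluster had a median of 21, among them Mmp24 with 44 CpG and a listing at 0 in all 4 libraries. A motif match describes letters in a window and shows no binding, and a window without a match says only that these letters are not there.

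**Figure D3:**
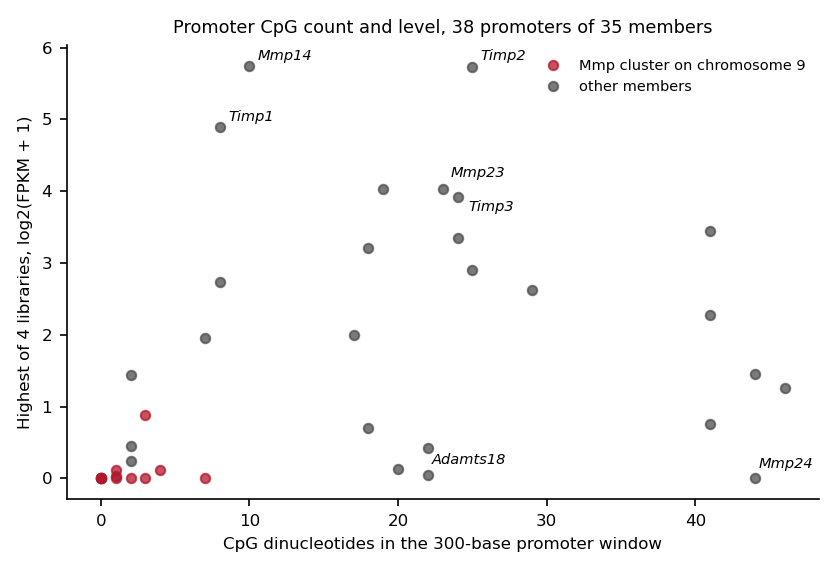
Number of CpG dinucleotides in each 300-base promoter window (x axis) against the highest level of its gene over the 4 libraries as log2(FPKM + 1) (y axis), for 38 windows of 35 genes, with 1 point a window. The windows of the chromosome 9 cluster (red) sit at 0 to 7 CpG and at or below 0.845 FPKM, and the other members (grey) spread over 2 to 46 CpG.

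Among the ADAMTS proteases, the proteoglycan-cleaving group was broadly present at low levels. Adamts1, which cuts versican and aggrecan, was at 4.93 FPKM (3.44 to 6.42) and 8.24 (7.19 to 9.30) in foot positive and negative cells and at 6.65 (6.09 to 7.2) and 6.69 (6.12 to 7.28) in back positive and negative cells. As deposited it was highest in foot negative cells, and the bounds of the 2 foot values did not overlap. After scaling it was highest in back negative cells, at 8.49 against 6.43 in foot negative cells, and the 2 foot bounds overlapped. Adamts9, a versican-cleaving enzyme, was at 3.5 (2.63 to 4.38), 2.50 (2.09 to 2.91), 6.47 (5.96 to 6.98) and 2.78 (2.47 to 3.10), highest in back positive cells. Adamts5, the other main aggrecan- and versican-cleaving enzyme, was at 1.40 (1.04 to 1.77), 0.637 (0.482 to 0.803), 2.21 (2.01 to 2.42) and 0.378 (0.300 to 0.454), higher in the positive fraction of both skins. Adamts1 and Adamts5 are neighbours on chromosome 16 (85794072 to 85803358 and 85858415 to 85901370, mm9) and had different patterns. The ratio of Adamts1 to Adamts5 was 3.51 (half-width 1.40) and 3.0 (half-width 0.371) in the foot and back positive libraries and 12.9 (half-width 3.66) and 17.7 (half-width 3.92) in the foot and back negative libraries.

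Adamts20, the versican-cleaving enzyme of the belted coat mutant, was at 1.12 FPKM (0.479 to 2.21) and 0.0892 (0 to 0.512) in foot positive and negative cells and at 3.83 (3.28 to 4.42) and 2.34 (1.96 to 2.85) in back positive and negative cells. It was thus higher in back than in foot in both fractions. The neighbouring proteoglycan-cleaving genes Adamts15 and Adamts8 (chr9:30706740-30730037 and chr9:30750147-30771423, mm9) were each highest in foot negative cells, with scaled bounds that overlapped those of foot positive cells. Adamts15 was at 1.11 and 1.83 FPKM in foot positive and negative cells and at 0.831 and 0.477 in back positive and negative cells, and Adamts8 was at 1.15, 2.34, 0.380 and 0.276 in that order. Adamts4, an aggrecan-cleaving enzyme, ranged from 1.3 to 1.81 FPKM in 3 libraries and was listed at 0 in back negative cells.

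The procollagen N-proteinases remove the amino-terminal propeptide of fibrillar procollagens. Adamts2, the main skin enzyme of this kind, was at 4.48 FPKM (3.51 to 7.46) and 7.34 (6.39 to 8.77) in foot positive and negative cells and at 9.94 (9.27 to 10.8) and 5.76 (5.26 to 6.46) in back positive and negative cells, highest in back positive cells. Adamts14 was at 0.740, 0.277, 1.73 and 1.20 FPKM, with both back values above both foot values. Adamts3 did not exceed 0.696 FPKM and was listed at 0 in foot positive cells.

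Of the other ADAMTS genes, Adamts10, which acts in fibrillin microfibrils (chr17:33661149-33690727, mm9), stood out in a single library. It was at 16.1 FPKM (10.9 to 21.3) in foot positive cells and at 6.12 (4.60 to 7.69), 3.21 (2.81 to 3.87) and 3.97 (3.24 to 4.88) in foot negative, back positive and back negative cells. The ratio of Adamts10 to Adamts2 was accordingly 3.6 (half-width 1.97) in foot positive cells and between 0.323 and 0.834 in the other 3 libraries. Adamts7 and Adamts12, which cut cartilage oligomeric matrix protein, had different patterns. Adamts7 was listed at 0 (upper bound 1.82) in foot positive cells and was at 5.01 (3.52 to 6.58), 3.37 (3.07 to 3.88) and 1.32 (1.05 to 1.75) in the others, while Adamts12 was at 2.86, 2.71, 2.71 and 1.71 FPKM. The exons of Adamts7 share 122 bases with Tbc1d2b on the opposite strand, a gene of at most 3.32 FPKM.

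Adamts17, another enzyme of the microfibril group, was at 2.39, 2.98 and 2.39 FPKM in foot positive, foot negative and back positive cells and at 0.867 in back negative cells. Adamts16 was higher in the positive fraction of the back, at 1.46 FPKM (1.23 to 1.69) against 0.226 (0.12 to 0.339), and was at 1.08 and 0.598 in foot positive and negative cells with overlapping bounds. Adamts19 was at 0.919 and 2.08 FPKM in foot positive and negative cells and at 0.221 and 0.242 in the back. Adamts6, Adamts13 (which cuts von Willebrand factor) and Adamts18 stayed at or below 0.704 FPKM.

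The ADAMTS-like proteins bind matrix, several of them fibrillin microfibrils, and have no protease activity. Adamtsl1 was the most abundant of them, at 14 FPKM (11.2 to 16.8) in foot positive, 12.5 (10.02 to 14.8) in foot negative, 18.7 in back positive and 6.65 (5.30 to 7.75) in back negative cells. The back positive value lay just above its own bounds of 15.5 to 18.5. Adamtsl2, which binds fibrillin and latent TGF-beta binding protein, was at 5.64 FPKM (2.96 to 8.35) in foot negative cells and at 0.241, 0.430 and 0.619 in foot positive, back positive and back negative cells. Adamtsl4 had its highest value, 9.17 FPKM, in foot positive cells with bounds of 0.168 to 19.3, and was at 0.545, 0.358 and 0.271 in the others, so its bounds overlapped in all of them. Adamtsl5, a fibrillin-binding protein, was at 1.83 FPKM (0.499 to 4.55), 5.17 (3.18 to 7.36), 1.80 (1.27 to 2.54) and 3.40 (2.52 to 4.33), with the foot pair first and the positive value first in each pair. The negative value was the larger in both skins, with deposited bounds that overlapped in both. After scaling, the bounds still overlapped in the foot but not in the back. Adamtsl3 reached 1.39 FPKM in foot negative cells and was at 0.452 in foot positive cells, listed at 0 in back positive cells and at 0.00956 in back negative cells.

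**Figure D4:**
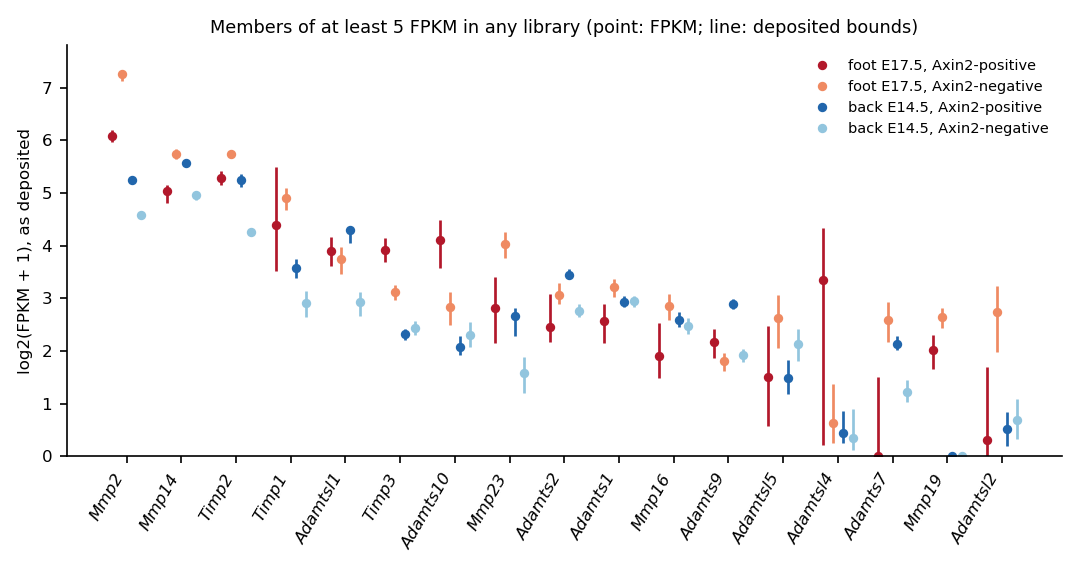
Deposited FPKM of the 17 genes that reached 5 FPKM, as log2(FPKM + 1), with a point for each of the 4 libraries and a line for its deposited bounds. Mmp2 has the widest separation between foot and back among the 3 leading genes, and Timp1 and Adamtsl4 have the widest bounds, both in the foot positive library.

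For the 4 comparisons, each library was divided by its median-ratio factor (1.08 and 1.28 for the foot positive and negative libraries, 0.918 and 0.788 for the back positive and negative ones). Ratios are given as log2 of the scaled FPKM + 1, with a half-width that combines the 2 values' bounds. FPKM levels and sums of cell type markers given below are as deposited, without this division. A gene entered a comparison with at least 5 FPKM in either library, so members high in 1 library only had to differ, and a 2-fold difference was counted as at least 1 in log2. The 4 comparisons share libraries in pairs. Bulk libraries of sorted cells cannot tell fewer expressing cells from less RNA per cell.

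In the foot, Adamts10 and Timp3 were higher in the library labelled positive, and Mmp2, Mmp14, Mmp23 and Adamtsl2 were lower. The log2 ratio of positive over negative was 1.46 (half-width 0.53) for Adamts10 and 1.01 (half-width 0.27) for Timp3. It was -0.92 (half-width 0.13) for Mmp2, -0.99 (half-width 0.67) for Mmp23, -0.46 (half-width 0.19) for Mmp14 and -2.14 (half-width 1.34) for Adamtsl2. Timp2, at -0.20 (half-width 0.16), and Timp1, at -0.28 (half-width 1.18), had overlapping bounds.

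Of 16 members tested in the foot, 3 were at least 2-fold higher in the positive library (Adamtsl4, Adamts10 and Timp3, or 18.8%), against 10.8% of all 8025 genes tested. Another 2 were at least 2-fold lower (Adamtsl2 and Adamts7, or 12.5%), against 11.0% of all genes, with Adamts7 counted as listed at 0 in the positive library. With bounds that did not overlap, 2 were higher (12.5%, against 18.8% of all genes) and 5 lower (31.2%, against 18.9%), again with Adamts7 among the lower. The counts at 2-fold were thus near the background. The members' median log2 ratio was -0.42 and that of all genes tested -0.02. Values as deposited gave 2 members higher and 5 lower, and moved all genes tested from 868 higher and 882 lower to 680 and 1236. The summed level of 6 mast cell markers was 3.15 FPKM in the foot positive and 267 in the foot negative library, with 1 and 5 of them at 1 FPKM or more. That of 5 skeletal muscle markers was 2.28 and 13.6, with 1 of them at 1 FPKM or more in each library. Most of the foot negative muscle sum was Tnnt1, at 12.6 FPKM (7.65 to 16.8). In foot positive cells Tnnt1 was at 0.978 (0.251 to 7.74), with overlapping bounds. The part of these cells in the foot ratios was not tested.

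In the back, most members that could be compared were higher in the positive library. Adamtsl1 had a log2 ratio of positive over negative of 1.18 (half-width 0.26), Mmp23 of 0.95 (half-width 0.43), Adamts9 of 0.83 (half-width 0.16) and Timp2 of 0.78 (half-width 0.15). Mmp2 was at 0.46 (half-width 0.10), Mmp14 at 0.39 (half-width 0.09), Timp1 at 0.48 (half-width 0.31) and Adamts2 at 0.51 (half-width 0.17). Adamts1, at -0.20 (half-width 0.15), and Mmp16, at -0.07 (half-width 0.22), had overlapping bounds, and Mmp16 was at 0.11 with values as deposited.

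Of 10 members tested in the back, 1 was at least 2-fold higher (Adamtsl1), against 4.36% of all 6736 genes, and 0 were 2-fold lower, against 3.87%. Leaving out values outside their own bounds removed Adamtsl1 and left 0. With bounds apart, 8 of the 10 were higher (80%), against 19.8% of all genes, and 0 were lower, against 21.0%. All 8 had bounds apart as deposited too. Their differences were mostly smaller than 2-fold. The members' median was 0.49 and that of all genes tested -0.03. Mast cell markers summed to 25.3 FPKM in the back positive and 87.7 in the back negative library, and the 10 leukocyte markers to 14.6 and 31.2, with 1 and 6 of them at 1 FPKM or more. The 6 pericyte and smooth muscle markers moved the other way, with sums of 35.3 and 16.0 FPKM, Acta2 at 21.9 and 13.7 and Tagln at 10.7 in the positive and listed at 0 in the negative library. The 12 dermal fibroblast markers summed to 4548 and 3198 FPKM and had a median log2 ratio of 0.40, beside the members' 0.49. The part of these cells was not tested.

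Between positive libraries, foot over back, Adamts10 (log2 ratio 1.82, half-width 0.47), Timp3 (1.40, half-width 0.25) and Mmp2 (0.61, half-width 0.13) were higher in the foot. Adamts2 (-1.20, half-width 0.52), Adamts9 (-0.93, half-width 0.29) and Mmp14 (-0.76, half-width 0.18) were lower in the foot. Mmp16 (-0.87, half-width 0.59), Adamtsl1 (-0.62, half-width 0.29) and Adamts1 (-0.57, half-width 0.37) were also lower, although the bounds of these 3 overlapped as deposited. Of 13 members tested, 3 were at least 2-fold higher (Adamts10, Timp3 and Adamtsl4, or 23.1%, against 16.2% of all 7820 genes). Adamts2 was 2-fold lower (1 member or 7.69%, against 14.6%). Adamtsl4 had a log2 ratio of 2.77 (half-width 1.39) with overlapping bounds. With bounds apart, 3 were higher (23.1%, against 30.5%) and 6 lower (46.2%, against 24.9%). The members' median was -0.18 and that of all genes 0.11. As deposited, 3 were 2-fold higher and 0 lower, and Mmp23 and Timp2, at -0.06 and -0.18 here, changed sign. Dermal fibroblast markers summed to 8015 FPKM in the foot positive and 4548 in the back positive library, with a median log2 ratio of 0.22. Of the 12, 3 were at least 2-fold higher in the foot and 1 was lower. The ratio was largest for Postn (2.80) and Dpt (1.65) and lowest for Col1a1 (-1.67). Pericyte and smooth muscle markers summed to 24.2 and 35.3 FPKM, with Rgs5 at 7.53 and 0.283 and Acta2 at 1.67 and 21.9. Mast cell markers summed to 3.15 and 25.3 FPKM, and the 6 endothelial markers to 0.979 and 5.96. The part of these cells was not tested.

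Between negative libraries, foot over back, Mmp2 (log2 ratio 1.98, half-width 0.10), Mmp23 (1.88, half-width 0.42), Adamtsl2 (1.60, half-width 0.72), Timp1 (1.34, half-width 0.32) and Timp2 (0.79, half-width 0.12) were higher in the foot. Mmp14 was at 0.09 (half-width 0.12) and Timp3 at 0.08 (half-width 0.20), with overlapping bounds. Of 15 members tested, 5 were at least 2-fold higher, with Mmp19 counted as listed at 0 in the back (33.3%, against 14.8% of all 7772 genes), and 0 were lower, against 12.3%. With bounds apart, 7 were higher (46.7%, against 34.1%) and Adamts1 was lower (6.67%, against 27.4%). The members' median was 0.19 and that of all genes 0.11. Scaling weighed most here: the genes used for it had a median of 0.67 as deposited, and 7 members were then 2-fold higher and 0 lower. Adamts1, Adamts10, Adamts2, Adamtsl5 and Mmp16, between -0.06 and -0.35 after scaling, were above 0 as deposited. Mast cell markers summed to 267 FPKM in the foot negative and 87.7 in the back negative library, with Cma1 at 165 and 24.2 but Cpa3 at 32.7 and 49.9. Dermal fibroblast markers summed to 7546 and 3198 FPKM, with a median log2 ratio of 0.25. Of the 12, 4 were at least 2-fold higher in the foot and 2 were lower. The ratio was largest for Postn (3.19) and Dpt (2.14) and lowest for Pdgfrb (-1.36) and Twist2 (-1.34). Pericyte and smooth muscle markers summed to 23.0 and 16.0 FPKM, an order that reverses after division by the factors, with Acta2 at 1.98 and 13.7. Skeletal muscle markers summed to 13.6 and 3.79, mostly from Tnnt1 at 12.6 and 2.69. The part of these cells was not tested. In the other comparisons the genes used for scaling had medians as deposited of -0.24 (foot), 0.20 (back) and 0.22 (positive libraries).

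The sort ratios of several members thus had opposite signs in the 2 skins. The foot ratio minus the back ratio was -1.38 (half-width 0.16) for Mmp2, -0.85 (half-width 0.21) for Mmp14, -1.93 (half-width 0.80) for Mmp23 and -0.98 (half-width 0.22) for Timp2. It was 1.32 (half-width 0.32) for Timp3 and 1.89 (half-width 0.61) for Adamts10, which were both under 5 FPKM in the back. The back ratio of Adamts10 was -0.43 (half-width 0.31), with overlapping bounds. Among 17 members with 5 FPKM in either skin the difference was below 0 in 14 and above 0 in 3, and it was below 0 in 49.3% of 8619 genes. The 14 include Adamts7, listed at 0 in foot positive cells, and Mmp19, listed at 0 in both back libraries. They also include Adamts1, Adamts9, Adamtsl5, Mmp16 and Timp1, whose 5 differences lay inside their half-widths. Of the 9 that could be compared in both skins, 6 were lower in the foot positive and higher in the back positive library, as were 23.7% of 6142 genes. Of these, Mmp2, Mmp14 and Mmp23 had bounds apart in both skins, a pattern that 4.38% of the 6142 genes had. Site, stage and the foot Axin2 level against its labels differ between these 2 contrasts and cannot be told apart.

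**Figure D5:**
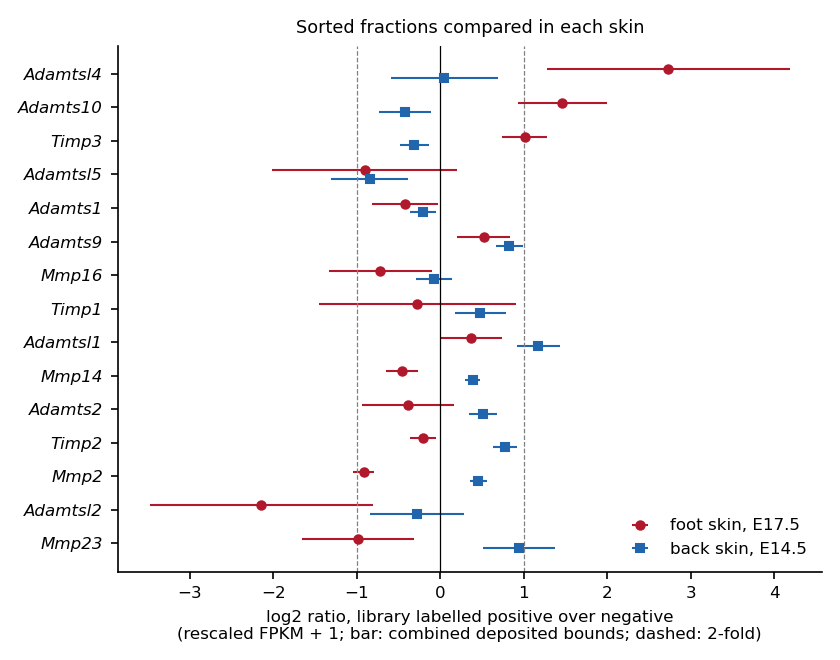
Log2 ratio of the library labelled positive over the negative one in foot (red circles) and back (blue squares), from scaled FPKM + 1, for members with 5 FPKM in either skin and no value of 0, with bars for the combined deposited bounds and dashed lines at 2-fold. Mmp2, Mmp14 and Mmp23 lie left of 0 in the foot and right of 0 in the back, and Timp3 and Adamts10 do the reverse. For Adamts10 the bounds of the 2 back libraries overlapped.

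Other genes of the proteolytic system were examined as a list of activators, other inhibitors and other matrix proteases, of which 40 were measured. In the foot, 3 of 20 tested were at least 2-fold higher in the positive library and 2 lower, against 10.8% and 11.0% of all genes. The serine protease Htra1 was at 183 FPKM against 88.8 (log2 ratio 1.27, half-width 0.18) and the matricellular protein Thbs1 had a ratio of 1.29 (half-width 0.29). Adam15 was the third, at 1.46 with overlapping bounds. Plat, the tissue plasminogen activator, was at 2.11 FPKM against 12 FPKM (log2 ratio -1.81, half-width 0.41), and Htra3 had a ratio of -1.61 (half-width 0.75). In the back, 2 of 19 were higher (Adam33 at 1.15 and Prss23 at 1.08) and 1 lower (Bmp1, the procollagen C-proteinase, at -1.25, with a back negative value above its own bounds), against 4.36% and 3.87% of all genes. Plat in the back was at 11.9 FPKM in positive and 6.91 in negative cells (log2 ratio 0.52, half-width 0.17), so it shared the signs of Mmp2 and Mmp14 in both skins.

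Between positive libraries, 6 of 22 system genes tested were at least 2-fold higher in the foot and 4 lower, against 16.2% and 14.6% of all genes. Between negative libraries, 9 of 19 were higher and 4 lower, against 14.8% and 12.3%. Fap, a fibroblast serine protease, had a log2 ratio of foot over back of 2.80 (half-width 0.33) in positive and 1.42 (half-width 0.32) in negative cells. Htra1 was at 2.24 (half-width 0.17) and 1.84 (half-width 0.16). The protease inhibitors Tfpi2, Serpine2 and Cst3 and the matricellular protein Sparc were higher in the foot in both fractions, by 1.06 to 1.89. Reck, the membrane-anchored inhibitor of MMPs, was lower in the foot at -1.04 (half-width 0.22) in both fractions, and the urokinase receptor Plaur was at -1.97 (half-width 0.50) and -1.37 (half-width 0.34). In positive cells Plat was at -2.25 and Prss23 was listed at 0 in the foot. In negative cells Adam33 was at 1.84, Ctsb at 1.02, Htra3 at 1.0, Thbs1 at -1.70 and Bmp1 at -1.64.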

How the data were processed

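RNA of sorted dermal cells was sequenced from mRNA-kit libraries, 1 per group. Per the submitters' processing notes the authors used TopHat and Cufflinks with the mm9 build. Versions and settings, the annotation and the confidence level of the bounds are not stated. The tables the authors deposited hold FPKM for each gene or assembled locus, with a status and 2 bounds, per the file headers.

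Entries of 1 symbol were summed, 22 symbols altered to dates in the foot positive table were restored, and the 455 gene units with a status other than OK were left out. Libraries were divided by the median ratio to the geometric mean over 3399 coding genes of at least 5 FPKM in all 4 libraries. Ratios used a pseudocount of 1 FPKM and needed 5 FPKM in either library. Half-widths add the 2 values' bounds in quadrature on the same scale. The scaling and calls were tested on simulated data. Read depth is not given by the tables, so precision is shown only by the bounds.

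Every gene matching the symbol rule is described, and those that reached 1 FPKM are named with levels or ranges. Genes of the system list are named where 2-fold apart, and cell type lists are given by their sums with examples. Members and lists were chosen with earlier results of these data known. Alternatives were values as deposited, another scaling gene set, a pseudocount of 0.1, a minimum of 1 FPKM and exclusion of values of 0 or outside their bounds. Promoter sequences are from RefSeq. Python 3.11.15, pandas 2.3.3 and NumPy 2.4.6 were used.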

Additional observations from a re-analysis of the deposited data

Results flagged for a closer look

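For 3 genes that reached 5 FPKM in both skins, the libraries of the 2 skins moved in opposite directions under the same sort, with scaled bounds apart in each skin. The foot log2 ratio of positive over negative minus the back ratio was -1.38 for Mmp2, -0.85 for Mmp14 and -1.93 for Mmp23. Each was lower in the foot library labelled positive and higher in the back library labelled positive. Among genes below 5 FPKM in the back, Timp3 ran the reverse way, also with scaled bounds apart in both skins. Adamts7 and Adamts3, both listed at 0 in foot positive cells, had the same signs as Mmp2 with scaled bounds apart. With 1 library a group these differences were not tested.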

How the results depend on the processing

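No paired analysis was possible because each group has 1 library. Scaling over 4834 named genes left all 8 counts, 4 medians and 54 member ratios within the limits set (1.5 times for counts, the half-width for ratios), and asking for bounds apart left all 8 counts within theirs. No member ratio of at least 2-fold changed sign under any alternative run. In the foot, where 2 members were 2-fold lower, values as deposited gave 5, a pseudocount of 0.1 gave 4 and leaving out values of 0 gave 1. In the back, where 1 member was 2-fold higher, values as deposited gave 2, a pseudocount of 0.1 gave 2, a minimum of 1 FPKM gave 4, and leaving out values outside their bounds gave 0. The set with a mean of at least 1 FPKM, chosen after seeing the data, gave 3, and the back median moved from 0.49 to 0.68 as deposited. Between positive libraries, where 1 member was 2-fold lower in the foot, values as deposited gave 0, and a pseudocount of 0.1, a minimum of 1 FPKM and the mean of at least 1 FPKM each gave 3. Between negative libraries the median moved from 0.19 to 0.82 as deposited and to 0.63 with a minimum of 1 FPKM. That minimum also raised the count of members higher in the foot from 5 to 10 and that of lower members from 0 to 2, and the mean of at least 1 FPKM gave 1 lower. The cause was not tested. The bounds limit the foot positive library most: Timp1 and Adamtsl4 have bounds there that overlap with foot negative and back positive cells.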
